A study of Mus musculus with 6 samples.

Results

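The genes described here encode the subunits of the mitochondrial respiratory chain and of ATP synthase. They were chosen by symbol alone, from the Nduf, Sdh, Uqcr, Cox and Atp5 gene names and from the mitochondrial mt-Nd, mt-Co, mt-Cytb and mt-Atp names, which gave 95 of the 23036 genes in the table. Of these, 82 are nuclear (37 for complex I, 4 for complex II, 8 for complex III, 16 for complex IV and 17 for complex V, which is ATP synthase) and 13 are mitochondrially encoded (7, 0, 1, 3 and 2 in the same order of complexes). The choice by symbol leaves out some subunits, such as Cox4i1, Cyc1 and Ndufab1. It counts Ndufa4, which was named for complex I and was later placed in complex IV, by its name, and it takes in the pseudogene Cox5b-ps.

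Bulk liver RNA came from female mice on a western diet, fed for 20 weeks from 8 weeks of age. HKDC1 LKO mice, with a knockout of Hkdc1 in the liver, were set against HKDC1 fl/fl mice, which carry the floxed gene; the question asked was what hepatic HKDC1, a hexokinase family protein, does during steatohepatitis (MASH). Every mouse had the diet, and the labels name no chow group, no Cre driver and no strain. The genotype field gives 3 LKO and 3 flox libraries, and the names LKO 1 to 3 and flox 1 to 3 used below follow it. For LKO 1 and flox 3 the title contradicts that field, naming fl/fl for LKO 1 and LKO for flox 3. Each comparison was therefore made in 3 readings of the labels. The title groups set LKO 2, LKO 3 and flox 3 against LKO 1, flox 1 and flox 2. The second reading kept only the 4 libraries whose labels agree, LKO 2 and LKO 3 against flox 1 and flox 2. The third used the genotype field. The labels do not say that the libraries are from different mice, and p-values then reflect the spread between libraries, which may be technical.

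The targeted gene, Hkdc1, had 10, 1 and 4 counts in LKO 1 to 3, against 49, 22 and 1 counts in flox 1 to 3. By title, it averaged 0.126 ± 0.110 CPM in LKO libraries and 1.496 ± 0.978 CPM in flox libraries (SD, n = 3 each; CPM, counts scaled to library size, here with TMM factors). That difference had an exact two-sided permutation p of 0.1, the smallest that 3 against 3 allows. By genotype field it averaged 0.302 ± 0.269 CPM in LKO libraries and 1.32 ± 1.24 CPM in flox libraries (SD, n = 3 each; exact permutation p = 0.3). Total counts were 17366295, 16420873 and 16734565 in LKO 1 to 3 and 16913372, 16166515 and 16322690 in flox 1 to 3. Summed levels of 6 hepatocyte markers were 82060 to 90410 CPM in the libraries titled LKO and 60494 to 71797 CPM in those titled flox. These sums separated the title groups, while by genotype field they overlapped (71797 to 87505 CPM in LKO 1 to 3 and 60494 to 90410 CPM in flox 1 to 3). Most of each sum was Alb, at 48664 to 71766 CPM. All 6 adrenal cortex markers were found; they summed to 4.03, 2426 and 251 CPM in LKO 1 to 3, against 2.54 to 4.67 CPM in flox 1 to 3, so LKO 2 and LKO 3 stand apart from the other libraries.

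Oxidative phosphorylation is the main source of ATP in hepatocytes. Complex I takes electrons from NADH and complex II from succinate; complex III passes them on to cytochrome c, and complex IV gives them to oxygen. Complexes I, III and IV pump protons across the inner membrane, and ATP synthase uses the return flow to make ATP. The mitochondrial genome encodes core subunits of all these complexes except complex II, while every other subunit is made from nuclear genes and imported, so each of the 4 mixed complexes needs both genomes.

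Stretches of the mitochondrial genome also lie in the nuclear genome, as near-identical copies annotated as pseudogenes on chromosome 1, and a short read that covers no differing base cannot tell the gene from its copy. Stretches of 90 bases of 3 mitochondrial genes, from base 1 of mt-Co2 and mt-Nd3 and from base 1054 of mt-Co1, are shown with their copies (GENCODE transcripts, GRCm38), because counts of genes with such copies are uncertain. Capitals mark the bases that differ within a pair.
mt-Co1: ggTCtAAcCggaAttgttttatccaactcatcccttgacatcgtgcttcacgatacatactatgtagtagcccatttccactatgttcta
Gm29216: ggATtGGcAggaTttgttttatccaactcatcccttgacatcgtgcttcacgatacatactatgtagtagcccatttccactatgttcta
mt-Co2: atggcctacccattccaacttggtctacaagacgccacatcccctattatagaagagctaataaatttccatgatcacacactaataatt
Gm28661: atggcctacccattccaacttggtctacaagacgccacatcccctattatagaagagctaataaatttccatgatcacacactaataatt
mt-Nd3: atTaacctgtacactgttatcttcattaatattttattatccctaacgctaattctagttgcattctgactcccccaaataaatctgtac
Gm28438: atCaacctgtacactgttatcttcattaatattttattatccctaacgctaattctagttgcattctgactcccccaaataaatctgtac
The mt-Co2 copy matched its gene at all 681 aligned bases. The mt-Nd3 copy differed at 1 of 345 aligned bases, T3C (the gene's base, the position in the gene, the copy's base). The mt-Co1 copy covered only part of the gene and matched at 486 of 492 aligned bases, with all 6 differences at its start. Copies of mt-Atp6 (Gm10925), mt-Co3 (Gm28437), mt-Nd4l (Gm10222) and mt-Nd4 (Gm28439) matched at all 678, 783, 294 and 876 aligned bases.

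No subunit gene passed the threshold of an adjusted p of 0.05 in edgeR in any reading of the labels, while other tools called single mitochondrially encoded genes. In edgeR's quasi-likelihood test, 0 of the 91 subunit genes that passed the filter on low counts were called with the title groups, where 51 of all 14310 genes tested were called (0.356%). With the 4 agreeing libraries it was 0 of 91, beside 91 of 14625 (0.622%). With the genotype field it was 0 of 91, beside 0 of 14310 (0%). At an unadjusted p under 0.05 there were 4 of 91 subunit genes (4.4%) with the title groups, 8 (8.79%) with the 4 agreeing libraries and 1 (1.1%) with the genotype field, beside 13.9%, 16.6% and 8.85% of all genes. Of the 13 mitochondrially encoded genes, 3 (23.1%), 4 (30.8%) and 0 (0%) were under it, and of the 78 nuclear genes 1 (1.28%), 4 (5.13%) and 1 (1.28%), in the same order of readings. DESeq2 called mt-Nd3 alone with the title groups, mt-Co3 alone with the 4 agreeing libraries and no subunit gene with the genotype field. Over all genes it called 632 of 14311, 734 of 14626 and 35 of 14311, Hkdc1 included in the genes tested. No subunit gene was called by limma-voom in any reading. On FPKM, limma-trend called mt-Nd3 alone, with the title groups only. Beside it stood 30 of all 14311 genes on log2(FPKM + 1) and 34 on log2(FPKM + 0.1).

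Nuclear subunit genes lay slightly above 0 on balance, and nearly all of their 95% intervals stayed within a log2 fold change of 1. The median log2 fold change, LKO against flox, of the 78 nuclear genes tested was 0.13 with the title groups, 0.19 with the 4 agreeing libraries and 0.13 with the genotype field, where the medians of all genes were 0.0042, 0.0049 and -0.0053. It was above 0 for 62, 67 and 65 of the 78, in the same order of readings, beside 50.7%, 50.6% and 49.1% of all genes. The 95% interval stayed within a log2 fold change of 1 in either direction for 77, 74 and 78 of the 78, beside 71.4%, 59.9% and 71.5% of all genes. The lowest adjusted p (edgeR) of a nuclear subunit gene was 0.344, 0.205 and 0.554. Genes whose LKO libraries were all above the flox libraries numbered 8, 20 and 2 of the 78, beside 8.61%, 24% and 7.47% of all genes; none was lower in every LKO library, beside 10.4%, 25.3% and 6.87%. These shares of complete separation (10.3%, 25.6% and 2.56%) were near the background for higher genes in the first 2 readings and below it with the genotype field, and below it for lower genes in all 3.

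**Figure D1:**
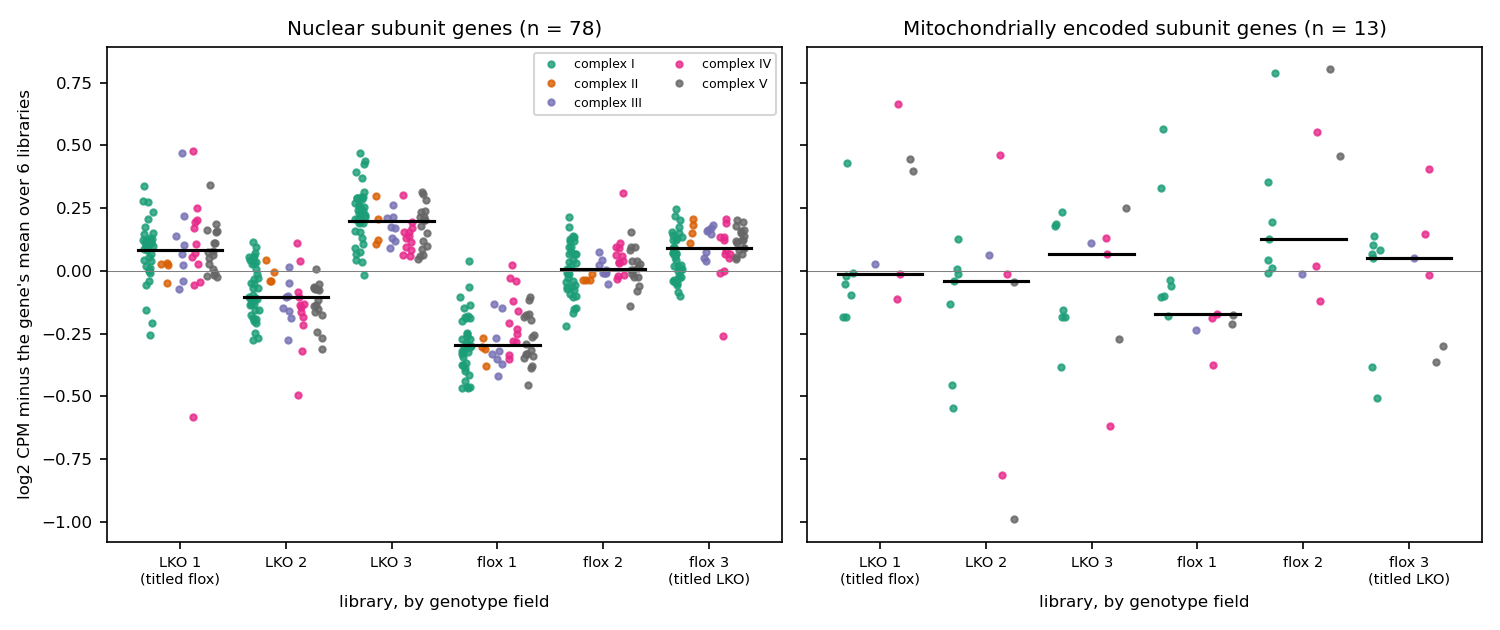
Level of each subunit gene in each library, as log2 CPM minus the mean of that gene over the 6 libraries (y axis), for nuclear genes on the left and mitochondrially encoded genes on the right; points are genes coloured by complex and black lines are medians. The nuclear genes of flox 1 sit lowest, at a median of -0.29, and those of LKO 3 highest, at 0.20, while the mitochondrially encoded genes scatter widely within each library.

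The nuclear genes shifted together from library to library. Relative to each gene's own mean on the log2 CPM scale, the median nuclear subunit gene was at 0.08, -0.10 and 0.20 in LKO 1 to 3, against -0.29, 0.0084 and 0.09 in flox 1 to 3. The plot of levels by library shows this for every complex at once. Flox 1 held the lowest CPM of 62 of the 78 genes and LKO 3 the highest of 46, while of the other 13329 genes at a mean of at least 1 CPM, 27.4% were lowest in flox 1 and 18.9% highest in LKO 3. Within a gene, the highest library was 1.18 to 1.97 times the lowest, with a median of 1.43. Without flox 1 the median log2 fold change was 0.05 with the title groups, 0.04 with the 4 agreeing libraries and 0.03 with the genotype field, and 46, 48 and 48 of the 78 genes were above 0. Without LKO 3 the medians were 0.06, 0.02 and 0.06, and 51, 44 and 56 genes were above 0. Leaving out LKO 2 moved them the other way, to 0.21, 0.33 and 0.19. Without LKO 1 the title-group median was 0.21, without flox 2 that of the 4 agreeing libraries was 0.34, and without flox 3 the genotype-field median was 0.21.

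Some sums of cell markers separated the title groups as well, while those of Kupffer cell and macrophage, T and B cell, and red cell markers overlapped. The Kupffer cell and macrophage markers summed to 364, 309 and 378 CPM in the libraries titled LKO, against 373, 490 and 406 CPM in those titled flox. Within that list Cd68, Trem2 and Gpnmb were lower in every library titled LKO, while Clec4f and Adgre1 overlapped. Gpnmb had 2.89, 11.3 and 14.3 CPM in the libraries titled LKO, against 45.6, 191 and 87.0 CPM in those titled flox. The 5 stellate cell and fibroblast markers, all found, summed to 248, 221 and 285 CPM in the libraries titled LKO, against 337, 928 and 645 CPM in those titled flox. The 4 cholangiocyte markers, all found, summed to 6.27, 7.03 and 9.34 CPM in the libraries titled LKO, against 13.6, 37.1 and 20.0 CPM in those titled flox. The stellate cell and cholangiocyte sums were lower in every library titled LKO, and the hepatocyte sum was higher there. Flox 1 held the extreme value of all 3 sums. Not every gene followed its sum: Acta2 and Dcn of the stellate cell list overlapped between the title groups. Of the hepatocyte markers, Alb and Cps1 separated the title groups, while Apoa1, Ttr, Ass1 and Hnf4a overlapped. Apoa1 was highest in LKO 1, which is titled flox, at 8266 CPM. In bulk tissue, fewer cells of a type and less RNA per cell cannot be told apart, and the part of these markers in the nuclear medians and in every fold change given below was not tested. On deposited FPKM, which is scaled by the sum of counts alone, nuclear subunit genes summed to 6357, 5680 and 6407 FPKM in LKO 1 to 3, against 5724, 6136 and 6083 FPKM in flox 1 to 3. There flox 1 was lowest for 34 genes and LKO 2 for 30. With library size alone as scaling, the median of all genes moved to -0.10, -0.13 and -0.08 in the 3 readings, and 45, 53 and 58 of the 78 nuclear genes were above 0.

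**Figure D2:**
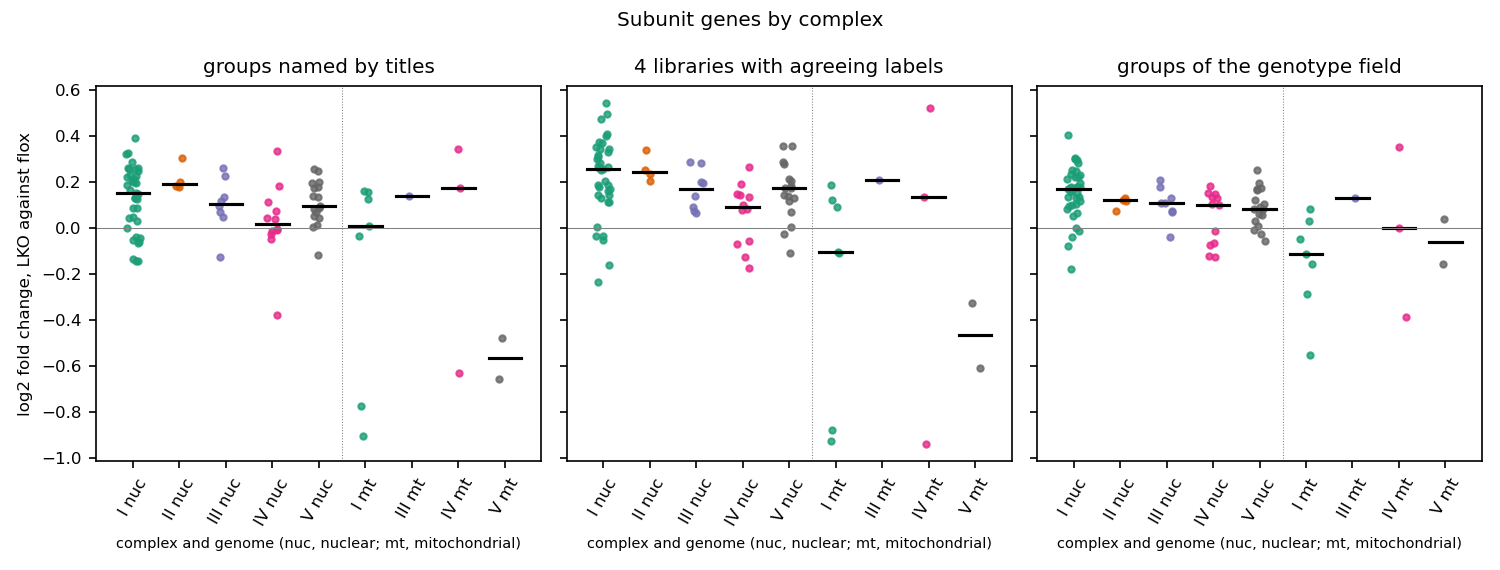
Log2 fold change of LKO against flox (y axis) for each subunit gene, by complex and genome (x axis), in the 3 readings of the labels; points are genes and black lines are medians. Nuclear genes of complexes I, II, III and V sit mostly above 0 in each panel, and the mitochondrially encoded genes spread from about -0.9 upward in the left and middle panels.

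Complex I had the most nuclear genes, 37, at 1.29 to 141 mean FPKM with a median of 43.5. Their median log2 fold change was 0.15 with the title groups (29 of 37 above 0), 0.26 with the 4 agreeing libraries (32 of 37) and 0.17 with the genotype field (33 of 37). The 11 Nduf s and v genes, which encode the core of the matrix arm and some accessory subunits, had medians of 0.23, 0.30 and 0.18, and the 26 genes of the a, b and c names had medians of 0.13, 0.23 and 0.16. The 3 highest by FPKM were Ndufa2, an accessory subunit of the matrix arm, Ndufa4, and Ndufb11, an accessory subunit of the membrane arm. Ndufb11 (chromosome X, 20481565 to 20483858, GRCm39) had 115, 130 and 117 CPM in the libraries titled LKO (LKO 2, LKO 3 and flox 3), against 119, 90.4 and 100 CPM in those titled flox (LKO 1, flox 1 and flox 2). The title groups overlapped through LKO 1, which exceeded LKO 2 and flox 3. Its log2 fold change was 0.23 ± 0.13 (SE; adjusted p of edgeR = 0.506). Ndufa4 and Ndufa2 were at -0.06 ± 0.12 and -0.04 ± 0.18 with the title groups (SE).

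The lowest p of the nuclear complex I genes fell on core subunits of the matrix arm and on 1 accessory subunit. Ndufv2, a core subunit that carries an iron-sulphur cluster near the site of NADH oxidation, had 79.4, 92.6 and 82.8 CPM in the libraries titled LKO, against 69.6, 68.0 and 75.1 CPM in those titled flox. Every library titled LKO was above every library titled flox, and the log2 fold change was 0.26 ± 0.11 (SE; 95% interval 0.0078 to 0.51; adjusted p of edgeR = 0.344). Ndufs8, a core subunit with iron-sulphur clusters on the path to ubiquinone, had 71.98, 78.9 and 73.8 CPM in the libraries titled LKO, against 71.7, 48.1 and 59.1 CPM in those titled flox. These groups separated too, though LKO 1 was close to LKO 2, and the fold change was 0.33 ± 0.15 (SE; adjusted p of edgeR = 0.388). With the 4 agreeing libraries that of Ndufs8 was 0.50 ± 0.16 (SE; adjusted p of edgeR = 0.205). Ndufv3, an accessory subunit, had 63.0, 53.8 and 69.3 CPM in LKO 1 to 3 by genotype field, against 38.8, 49.8 and 52.0 CPM in flox 1 to 3. All 3 LKO libraries were above all 3 flox libraries in that reading, with a log2 fold change of 0.41 ± 0.15 (SE; adjusted p of edgeR = 0.554), while the title groups overlapped (0.20 ± 0.19, SE). No one gene of these 3 separated the groups in every reading.

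Complex II, succinate dehydrogenase, is built of 4 nuclear subunits and is also an enzyme of the citric acid cycle. All 4 were above 0 in all 3 readings, with medians of 0.19, 0.25 and 0.12. Sdha, the flavoprotein that oxidises succinate, had 449, 485 and 511 CPM in the libraries titled LKO, against 459, 365 and 447 CPM in those titled flox, so LKO 1 lay above LKO 2. Sdhb, the iron-sulphur subunit, had 166, 210 and 198 CPM in the libraries titled LKO, against 166, 132 and 167 CPM in those titled flox. LKO 2 lay just below flox 2, and the log2 fold change was 0.30 ± 0.14 (SE; adjusted p of edgeR = 0.397). Sdhd, a membrane anchor, had 184, 195 and 198 CPM in the libraries titled LKO, against 182, 144 and 174 CPM in those titled flox. Its title groups did not overlap but were less than 2 CPM apart at the nearest, with a log2 fold change of 0.20 ± 0.12 (SE; adjusted p of edgeR = 0.528). Sdhc, the other anchor, was at 0.18 ± 0.13 (SE). In all 4 genes flox 1 was the lowest library.

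The 8 nuclear genes of complex III ran from 55.1 to 171 mean FPKM and had median log2 fold changes of 0.11, 0.17 and 0.11 (7, 8 and 7 of 8 above 0). Uqcrc1, a core subunit, had 220, 273 and 258 CPM in the libraries titled LKO, against 221, 178 and 226 CPM in those titled flox. Only LKO 2 kept these groups from separating, and the log2 fold change was 0.26 ± 0.14 (SE; adjusted p of edgeR = 0.467). Uqcrfs1, the Rieske iron-sulphur protein that takes electrons from ubiquinol, was at 0.23 ± 0.14 (SE). The small subunits Uqcrq and Uqcr11, the 2 most abundant per length, were at 0.07 ± 0.17 and -0.13 ± 0.22 (SE). Uqcr11 was highest in LKO 1, at 142 CPM, beside 76.6 to 109 CPM in the other 5 libraries.

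Complex IV, cytochrome c oxidase, gave the lowest nuclear median with the title groups. The 12 genes that passed the filter had medians of 0.019, 0.09 and 0.10, with 6, 8 and 7 of 12 above 0. Cox6a1, the liver form of subunit 6a and the highest nuclear gene of the whole set at 417 mean FPKM, had 261, 328 and 290 CPM in the libraries titled LKO, against 334, 240 and 311 CPM in those titled flox. The groups overlapped throughout, with a log2 fold change of -0.012 ± 0.16 (SE; 95% interval -0.38 to 0.35). Cox8a was at 0.04 ± 0.14 and Cox6b1 at -0.0063 ± 0.14 (SE), both with overlapping groups. Cox5a, a subunit on the matrix side, had 91.2, 97.8 and 96.7 CPM in the libraries titled LKO, against 93.3, 69.6 and 87.9 CPM in those titled flox, with a log2 fold change of 0.19 ± 0.13 (SE; adjusted p of edgeR = 0.594). Cox7a2l, a factor that joins complexes III and IV into supercomplexes, was at 0.11 ± 0.12 (SE). The lowest nuclear value with the title groups was that of Cox5b-ps, at -0.38 ± 0.25 (SE; adjusted p of edgeR = 0.559); 61.9% of its 50-base windows and 21.3% of its 100-base windows are also found in other genes' transcripts, so its counts are uncertain. Cox5b itself was at -0.0018 ± 0.16 (SE).

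Nuclear genes of ATP synthase had medians of 0.10, 0.18 and 0.08, with 16, 15 and 14 of 17 above 0. Atp5b, the catalytic beta subunit, had 1081, 1170 and 1230 CPM in the libraries titled LKO, against 1196, 948 and 1200 CPM in those titled flox; the groups overlapped, with a log2 fold change of 0.06 ± 0.15 (SE; 95% interval -0.28 to 0.39). Atp5a1, the alpha subunit, had 1003, 1069 and 1147 CPM in the libraries titled LKO, against 1002, 783 and 1017 CPM in those titled flox. Flox 1 was again the lowest library, and the log2 fold change was 0.20 ± 0.15 (SE; adjusted p of edgeR = 0.619). Atp5g3 and Atp5g1, which both encode subunit c of the rotating ring, were at 0.14 ± 0.14 and 0.26 ± 0.15 (SE). Atp5o, a subunit of the peripheral stalk, was at 0.20 ± 0.15 with the title groups and at 0.36 ± 0.17 with the 4 agreeing libraries (SE; adjusted p of edgeR = 0.355). Atpif1, the inhibitor that binds ATP synthase when it runs backwards, is outside the name rule; it had 5.45, 5.00 and 6.02 CPM in LKO 1 to 3, against 7.65, 6.93 and 6.36 CPM in flox 1 to 3. By genotype field its groups did not overlap, with LKO below flox and a log2 fold change of -0.35 ± 0.18 (SE; adjusted p of edgeR = 0.576). Its title groups overlapped, with a log2 fold change of -0.21 ± 0.21 (SE; adjusted p of edgeR = 0.717).

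Mitochondrially encoded genes took 3.31%, 3.64% and 3.69% of all counts in LKO 1 to 3, against 3.70%, 3.69% and 3.66% in flox 1 to 3; nuclear subunit genes took 1.06%, 0.991% and 1.10%, against 0.975%, 1.05% and 1.06%. LKO 1 thus had the lowest mitochondrial share. A single gene, mt-Co1, held 38.9% to 40.9% of the mitochondrial counts. The median log2 fold change of the 13 genes was 0.012 with the title groups, -0.10 with the 4 agreeing libraries and -0.04 with the genotype field, and 7, 6 and 6 of 13 were above 0. By complex with the title groups, the median was 0.012 for the 7 genes of complex I, 0.14 for mt-Cytb of complex III, 0.17 for the 3 genes of complex IV and -0.57 for the 2 genes of ATP synthase. The nuclear genes of the same complexes had 0.15, 0.11, 0.019 and 0.10, so ATP synthase differed most between genomes in that reading. Its mitochondrial median rests on 2 genes with uncertain counts. mt-Atp8 had 8 to 27 counts a library, and 99.5% of the 50-base windows of mt-Atp6 are also in other genes' transcripts. With the genotype field the mitochondrial medians were -0.11, 0.13, 0.0027 and -0.06. The difference between the genomes was not tested, because genes of 1 library are not independent replicates.

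**Figure D3:**
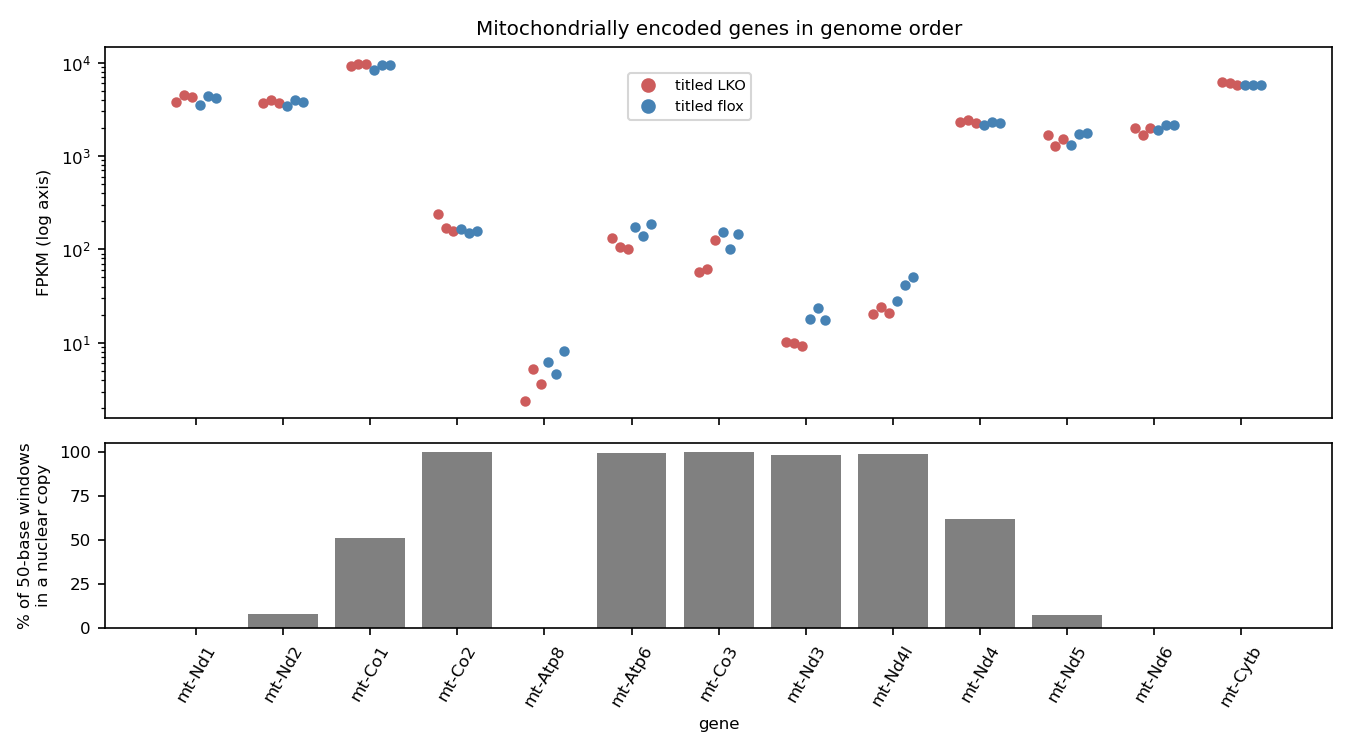
Deposited FPKM of the 13 mitochondrially encoded genes in each library (upper panel, log axis), in genome order, with libraries titled LKO in red to the left of those titled flox in blue, and the share of each gene's 50-base windows that are also in another gene's transcript (lower panel). Of the 6 genes that average under 200 FPKM, 5 have bars close to 100%.

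The 13 genes fell into separate ranges of level. All are transcribed from 1 circular genome as long precursors that are then cut into single RNAs. Per length, 7 genes (mt-Nd1, mt-Nd2, mt-Co1, mt-Nd4, mt-Nd5, mt-Nd6 and mt-Cytb) averaged 1546 to 9269 FPKM, and 6 genes (mt-Co2, mt-Atp8, mt-Atp6, mt-Co3, mt-Nd3 and mt-Nd4l) averaged 5.05 to 173 FPKM. The 6 lower genes follow one another from 7013 to 10173 on the mitochondrial chromosome (GRCm39), between mt-Co1 and mt-Nd4. Of their 50-base windows, 98% to 100% were also found in other genes' transcripts for 5 of them, as in the sequences of mt-Co2 and mt-Nd3 printed above. The exception was mt-Atp8 at 0%, which lies at 7766 to 7969 and overlaps mt-Atp6 at 7927 to 8607. Among the 7 higher genes the share was 62.2% for mt-Nd4, 51.1% for mt-Co1, 8.19% for mt-Nd2, 7.61% for mt-Nd5 and 0% for mt-Nd1, mt-Cytb and mt-Nd6. How reads with several matches, or reads over overlapping genes, were counted is not described in the labels. Levels of the 6 lower genes are therefore uncertain, as are those of mt-Nd4 and mt-Co1 among the higher genes. The part of the copies in any of these levels was not tested.

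With the title groups the 7 higher genes had log2 fold changes of -0.03 to 0.17 with a median of 0.14, and the 6 lower genes had -0.90 to 0.34 with a median of -0.64. With the 4 agreeing libraries the medians were 0.12 and -0.74, and with the genotype field 0.0027 and -0.22. The lower genes did not move as one: 1, 1 and 2 of the 6 were above 0 in the 3 readings, mt-Co2 in each, and the difference between the sets was not tested. The lowest adjusted p (edgeR) of the 7 higher genes was 0.693 with the title groups, 0.760 with the 4 agreeing libraries and 0.771 with the genotype field. As examples, mt-Co1, the catalytic subunit of cytochrome c oxidase, had 14170, 15663 and 15856 CPM in the libraries titled LKO, against 13230, 12686 and 14496 CPM in those titled flox. Only LKO 2 fell below a library titled flox, and the log2 fold change was 0.17 ± 0.18 (SE; adjusted p of edgeR = 0.727). For mt-Cytb, cytochrome b of complex III, the libraries titled LKO had 7013, 7254 and 6952 CPM, against 6840, 5698 and 6656 CPM in those titled flox. These groups did not overlap, with a log2 fold change of 0.14 ± 0.16 (SE; adjusted p of edgeR = 0.753). On the minus strand, mt-Nd6 was at -0.03 ± 0.13 (SE).

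With the title groups 5 of the 6 lower genes were below 0, and none of the 6 passed the edgeR threshold. mt-Nd3, a membrane subunit of complex I, had 3.50, 3.67 and 3.37 CPM in the libraries titled LKO, against 6.45, 7.09 and 6.12 CPM in those titled flox, from 58, 58 and 52 counts against 109, 137 and 99. The title groups were far from overlapping, with a log2 fold change of -0.90 ± 0.19 (SE; 95% interval -1.34 to -0.47; adjusted p of edgeR = 0.103). DESeq2 gave -0.90 with an adjusted p of 0.0144, the range of log2 fold changes over all alternatives and left-out libraries was -1.01 to -0.83, and that of adjusted p was 0.0144 to 0.326. By genotype field the same gene was at -0.28 ± 0.36 (SE; adjusted p of edgeR = 0.795), since LKO 1 is high and flox 3 is low.

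Complex I's mt-Nd4l had 5.91, 7.60 and 6.62 CPM in the libraries titled LKO, against 8.59, 10.9 and 14.9 CPM in those titled flox. The title groups did not overlap, and the log2 fold change was -0.77 ± 0.23 (SE; adjusted p of edgeR = 0.187). For mt-Co3, a core subunit of complex IV, the libraries titled LKO had 44.5, 51.0 and 104 CPM, against 124, 68.8 and 115 CPM in those titled flox. LKO 2 and LKO 3 were the lowest, and flox 3 lay among the libraries titled flox. Its log2 fold change was -0.63 ± 0.34 with the title groups and -0.94 ± 0.25 with the 4 agreeing libraries (SE; adjusted p of edgeR = 0.466 and 0.164); without flox 3 the title-group value was -1.10. DESeq2 called mt-Co3 with the 4 agreeing libraries (adjusted p = 0.0199). Its lowest adjusted p in that reading, 0.00691, came from edgeR without a filter on low counts, where 1109 of all 21950 genes tested were called. Over that reading's alternatives and left-out libraries its log2 fold change was -1.27 to -0.54.

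ATP synthase's mt-Atp6, part of the proton channel, had 89.8, 76.8 and 72.1 CPM in the libraries titled LKO, against 122, 81.9 and 127 CPM in those titled flox. Flox 1 lay between the libraries titled LKO, and the log2 fold change was -0.47 ± 0.18 (SE; adjusted p of edgeR = 0.296). mt-Atp8 rested on 8 to 27 counts a library, with a log2 fold change of -0.66 ± 0.45 (SE). The only lower gene above 0 was mt-Co2, which binds the copper center that receives electrons from cytochrome c. It had 161, 122 and 115.2 CPM in the libraries titled LKO, against 115.5, 89.9 and 107 CPM in those titled flox, with flox 3 just below LKO 1 and a log2 fold change of 0.34 ± 0.16 (SE; adjusted p of edgeR = 0.395). Among the lower genes with near-identical copies, mt-Co2 alone was above 0 with the title groups, and the part of the copies was not tested.

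**Figure D4:**
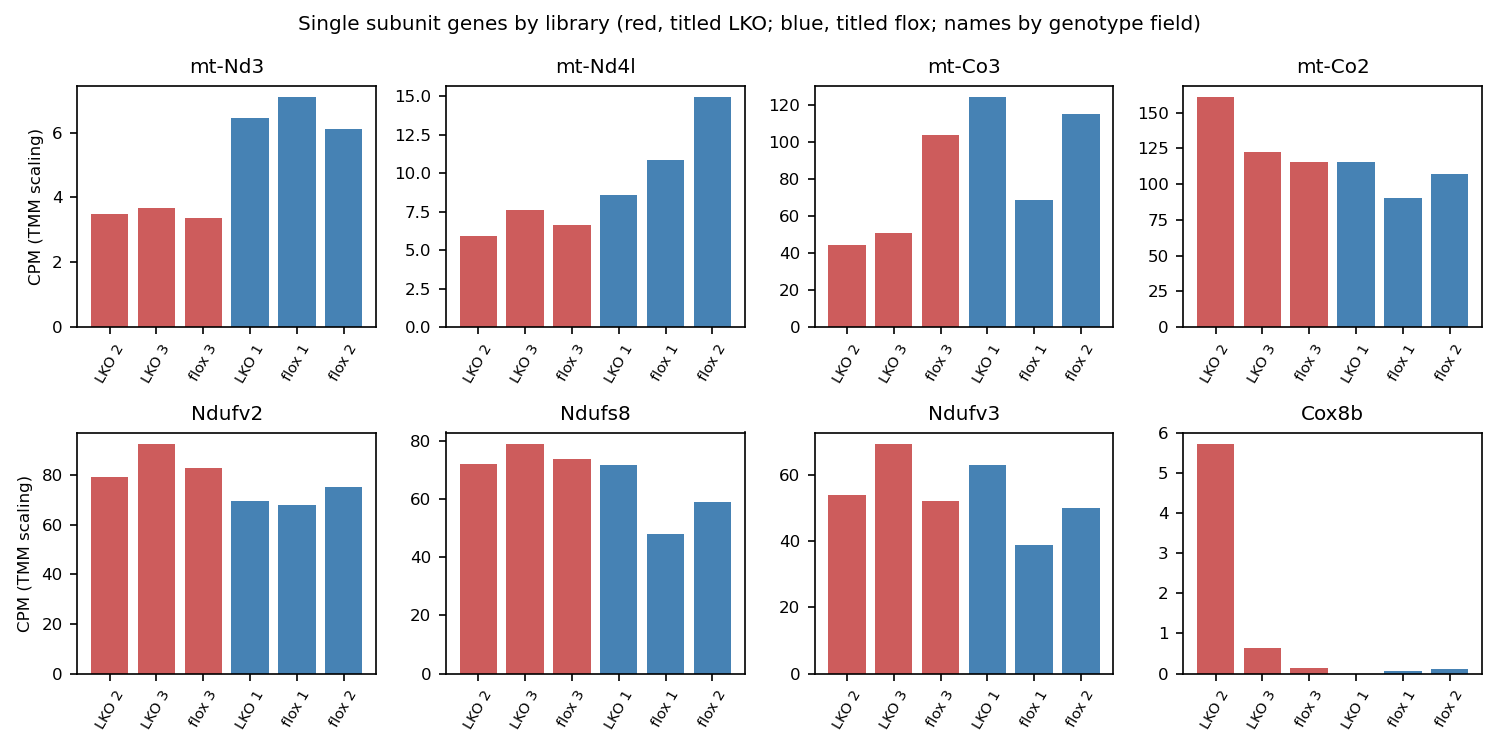
CPM after TMM scaling (y axis, from 0) of 8 subunit genes in each library, named by genotype field; red bars are libraries titled LKO and blue bars those titled flox. mt-Nd3 is below 4 CPM in all red bars and above 6 CPM in all blue bars, while Cox8b stands out in LKO 2 alone.

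Some complex IV subunits have forms limited to muscle, brown fat or testis. The 4 subunit genes that did not pass the filter in any reading were such forms: Cox8b and Cox6a2 of heart, muscle and brown fat, and Cox6b2 and Cox8c of testis. Cox8b (chromosome 7, 140478858 to 140480359, GRCm39) had 5.73, 0.634 and 0.130 CPM in the libraries titled LKO, against 0, 0.0517 and 0.124 CPM in those titled flox, where 3 counts correspond to 0.173 to 0.186 CPM. LKO 2 was highest and LKO 3 next, and the other 4 libraries were under 3 counts. Ucp1, the uncoupling protein of brown fat, had 0.237, 36.3 and 4.18 CPM in LKO 1 to 3, against 0, 0 and 0.0649 CPM in flox 1 to 3. The 6 brown fat markers, which include Cox8b, Cox7a1 and Ucp1, were all found. They summed to 18.1, 73.2 and 26.9 CPM in LKO 1 to 3, against 16.2 to 24.3 CPM in flox 1 to 3. Not every marker followed the sum. Ppargc1a was lowest in LKO 2, at 9.64 CPM, and made up 14.8 CPM of the LKO 3 sum. Elovl3 in LKO 3, at 2.60 CPM, was below LKO 1 and flox 3, at 5.74 and 4.93 CPM. The adrenal cortex markers given above were highest in LKO 2 and LKO 3. So were Adipoq, Plin1, Lep and Cfd of the 5 white fat markers, while Cidec was highest in flox 2. The part of any of these tissues was not tested. Cox7a1, the heart and muscle form of subunit 7a, had 2.11, 2.41 and 2.14 CPM in the libraries titled LKO, against 1.30, 1.91 and 2.04 CPM in those titled flox, with a log2 fold change of 0.34 ± 0.30 (SE; adjusted p of edgeR = 0.685). The striated muscle markers summed to at most 0.663 CPM in any library, and Ckm was at 0 in all 6.

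Genes that build or feed the complexes also had small positive medians in most readings, and edgeR called 0 of them in each reading. At an unadjusted p under 0.05 the share of a list was 0% to 15.8% with the title groups, 0% to 23.1% with the 4 agreeing libraries and 0% to 18.8% with the genotype field, beside 13.9%, 16.6% and 8.85% of all genes. The highest shares were those of the citric acid cycle (3 of 19), coenzyme Q synthesis (3 of 13) and complex I assembly factors (3 of 16); calls by the other tools were not counted for these lists. The 77 mitochondrial ribosomal protein genes, needed to translate the mitochondrial messages, had medians of 0.10, 0.19 and 0.15, with 58, 64 and 66 above 0. The 16 complex I assembly factors had 0.09, 0.20 and 0.10, and assembly factors of complexes II to V had 0.08, 0.12 and 0.13. The 30 genes that replicate and express mitochondrial DNA had 0.18, 0.20 and 0.06, and the 19 genes of the citric acid cycle had 0.16, 0.15 and 0.06. Medians were 0.11, 0.06 and -0.020 for regulators of mitochondrial biogenesis, 0.11, 0.17 and 0.00016 for ADP, phosphate and electron shuttles, and 0.16, 0.13 and 0.12 for the 13 genes of coenzyme Q synthesis. Subunits that the name rule leaves out, Cyc1 and Cox4i1 among them, had 0.18, 0.27 and 0.18. The lowest adjusted p in all these lists was that of Coq8a, an atypical kinase needed for coenzyme Q synthesis, with the 4 agreeing libraries. It averaged 307 ± 10.7 CPM in LKO libraries and 120 ± 32.9 CPM in flox libraries (SD, n = 2 each), with a log2 fold change of 1.35 ± 0.22 (SE; adjusted p of edgeR = 0.0654). With the title groups no coenzyme Q gene, Coq8a included, was above a log2 fold change of 0.66. The size of the Coq8a change therefore depended on the reading of the labels. By genotype field Coq8a was at 1.07 ± 0.21 (SE; adjusted p of edgeR = 0.554). With the title groups the lowest was Mrpl54, a mitochondrial ribosomal protein, at 18.5 ± 0.919 CPM in LKO libraries and 26.0 ± 3.34 CPM in flox libraries (SD, n = 3 each), with a log2 fold change of -0.49 ± 0.13 (SE; adjusted p of edgeR = 0.150).

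Nuclear subunit genes are known targets of the transcription factors NRF1, GABPA (NRF2 of the older literature, not the antioxidant factor) and YY1. Promoters of 250 bases before to 50 bases after the start (RefSeq, GRCm38.p6) were found by symbol for 68 of the 82 nuclear genes and searched on both strands. The NRF1 motif was GCGC, then A and any base (N), then GCGC, which on the other strand reads GCGC, N and T, GCGC. It was present for 17 of 68 subunit genes (25%), beside 1402 of the 27025 genes with a promoter (5.19%). The YY1 motif AAGATGGC, with GCCATCTT on the other strand, was present for 10 of 68 (14.7%), beside 3.19%. The GABPA motif CCGGAAGT, with ACTTCCGG on the other strand, was present for 5 of 68 (7.35%), beside 4.31%. Each motif was counted on its own, so a promoter can hold more than one. These letters describe the promoters and do not show binding in these livers. One promoter stretch per complex is shown, from a gene that holds NRF1 letters or, for complex III, GABPA letters; capitals mark the motif.
Ndufa8 (chr2:36049339-36049388, minus strand): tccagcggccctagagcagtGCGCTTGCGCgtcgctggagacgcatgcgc
Sdhd (chr9:50603899-50603948, minus strand): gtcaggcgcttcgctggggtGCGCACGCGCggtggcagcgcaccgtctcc
Uqcr11 (chr10:80406860-80406907, minus strand): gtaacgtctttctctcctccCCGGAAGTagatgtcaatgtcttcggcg
Cox6a1 (chr5:115349091-115349140, minus strand): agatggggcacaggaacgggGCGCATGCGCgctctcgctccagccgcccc
Atp5h (chr11:115420031-115420080, minus strand): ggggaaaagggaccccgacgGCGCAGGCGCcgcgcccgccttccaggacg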

How the data were processed

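Liver poly-A RNA was sequenced in 6 libraries made with an NEBNext Ultra kit, per the labels' protocols. The authors deposited 1 table with raw counts per gene and FPKM per gene. Per the submitters' processing notes the tools included fastp, HISAT, StringTie, Cufflinks and featureCounts with build GRCm39. The sources used here do not give their roles, their versions, the strand setting or the treatment of reads with several matches. Counts were tested with edgeR 4.0.16 (R 4.3.3; filterByExpr, TMM, glmQLFit, glmQLFTest) over all genes that passed the filter, adjusted by Benjamini-Hochberg and called at 0.05, in each reading of the labels. Standard errors were computed as the size of the log2 fold change over the square root of F. The members, gene lists and readings were chosen with earlier results of these data known.

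Named genes were every mitochondrially encoded gene, the 3 nuclear genes of highest mean FPKM in each complex, the member of lowest unadjusted p in each reading and nuclear complex, the tissue forms of complex IV, Cox7a2l and Atpif1; the rule for the other lists was the genes of lowest p. Totals were 16166515 to 17366295 counts. Every pair of libraries differed by more than sampling noise (chi-square per gene 17.3 to 74.6). In simulated data with 2-fold and 4-fold changes, edgeR recovered 55% and 85% with the title groups (14311 genes), 26% and 77% with the 4 agreeing libraries (14626 genes) and 48% and 82% with the genotype field (14311 genes). The changed genes were drawn from all genes tested, so these rates are not specific to subunit genes and do not cover smaller changes. Shared sequence was counted as exact windows of 50 bases in GENCODE transcripts of GRCm38, whose coordinates were not mixed with those of the deposited table. Of the 82 nuclear genes, 81 had such a transcript, and 18 shared at least 10% of their windows with another gene; 28 overlap another gene of the table. Counts of those genes are uncertain to that extent. Alternatives were other scalings, other filters, DESeq2 1.42.0, limma 3.58.1 (voom on counts, trend on log2 FPKM with pseudocounts of 1 and 0.1) and leaving out each library.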

Additional observations from a re-analysis of the deposited data

How the results depend on the processing

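No paired analysis was possible because the library numbers in the labels are not shared between the groups. The number of subunit genes called with the title groups was 0 with edgeR, 1 with DESeq2, 1 with limma-trend on log2(FPKM + 1) and 1 on log2(FPKM + 0.1), each time mt-Nd3 with LKO below flox. With the 4 agreeing libraries it was 3 without a filter on low counts (Cox8b, mt-Co3 and mt-Nd4l), beside 1109 of all 21950 genes tested. DESeq2 called 1 in that reading (mt-Co3). Leaving out 1 library gave 0 to 0 calls with the title groups, 0 to 1 with the 4 agreeing libraries (Cox8b, without LKO 3, where the lone LKO library is assumed to vary like the flox libraries) and 0 to 0 with the genotype field. Over all genes, DESeq2 called 632, 734 and 35 in the 3 readings where edgeR called 51, 91 and 0. The nuclear median log2 fold change ranged from 0.05 to 0.21, 0.02 to 0.34 and 0.03 to 0.21 when 1 library was left out, and from 0.03 to 0.14, 0.05 to 0.19 and 0.05 to 0.13 over the other alternatives. The mitochondrial median ranged from -0.05 to 0.11, -0.20 to 0.02 and -0.10 to 0.01 when 1 library was left out, so its sign changed with single libraries in all 3 readings. Among 2009 values of named genes under the alternatives, 24 moved by more than the standard error of the log2 fold change in the main fit. A further 6 crossed the threshold to a call, 0 lost a call, and 128 had the opposite sign of a value that was not called. The cause of these differences was not tested. The depth limits mt-Atp8, at 8 to 27 counts a library, and the tissue forms of complex IV most.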
